A study of Saccharomyces cerevisiae with 2 samples.

Results

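The genes described here are 46 meiosis and sporulation genes of budding yeast (Saccharomyces cerevisiae), chosen by name from a fixed list, among the 5656 genes that the array's annotation names. A probe set was taken for a gene where it is annotated to that gene alone, by its symbol or a synonym. All 46 genes were found, 42 with 1 probe set and 4 with 2, which makes 50 of the 9335 probe sets. The RNA came from cells whose histone H3 carries arginine in place of lysines 4, 36 and 79 (H3 K4,36,79R), the sites that Set1, Set2 and Dot1 methylate. These cells had been moved from galactose to glucose medium 12 h earlier. By design the move shuts off a wild-type H3 gene, so that the mutant protein becomes the cell's H3. How far wild-type H3 had been replaced was not measured here. The medium was selective before and after the move, and the cells were collected at an optical density of 0.5 to 0.7. RNA of 2 replicate cultures was hybridised to an Affymetrix yeast array each. Both arrays form 1 group. Wild-type cells and other times after the move were not analysed here, so no effect of the mutation can be given for any gene. Ploidy and strain background are not given in the labels.

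Meiosis in yeast is a program for starved diploid cells that carry both mating types. The activator Ime1, with the kinase Ime2, turns on early genes, whose proteins pair and recombine the chromosomes. The transcription factor Ndt80 then turns on middle genes for the divisions and the membrane around each spore, and late genes complete the spore wall. In growing cells early genes are held off by Ume6 with the Sin3 and Rpd3 deacetylase, and many middle genes by Sum1 with the deacetylase Hst1. The members were placed in 4 classes by these textbook roles, with 4 regulators, 21 early, 17 middle and 4 late genes. The classes of SPO20, AMA1, CRR1 and SPR1 are less sure.

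Signal is the deposited linear intensity of a probe set, and a gene with several probe sets has the value 2 to the power of the mean of their log2 signals. Background was read from 9 control probe sets for the opposite strand of E. coli spike-in genes. Their median was 0.767 for replicate 1 and 1.23 for replicate 2, and the highest read 3.39 and 4.07. A gene is called above background here where it exceeded the highest of them on both arrays. Probe sets hybridise with unequal strength, so a gene was placed against the controls and the array, and its signal was not read as an amount of RNA relative to another gene. The median named gene read 42.0 on replicate 1 and 41.4 on replicate 2. The 3 probe sets for H3 match both H3 genes, HHT1 and HHT2, and averaged 1711 ± 2.83, 147 ± 13.7 and 2.41 ± 1.92 (SD, n = 2), so they do not tell mutant from wild-type transcript. With 2 arrays the precision of every value is limited by their number.

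The 46 genes were dim on both arrays. Their median signal was 5.97 ± 0.148 (SD, n = 2), against 41.7 ± 0.405 for all named genes. None of the 46 exceeded the median named gene on both arrays, or on either of them, where 48.2% of all named genes exceeded it on both. Above background on both arrays were 30 of 46, or 65.2%, where 96.3% of all named genes were. A further 5 exceeded the background level on replicate 1 only, and 11 on neither array. In a culture's total RNA, few cells with much of a transcript and many cells with little of it cannot be told apart.

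The background level decides much of this count. At 2 times the highest opposite-strand control 14 of the 46 remained above it, and against the highest of the 4 mouse controls (0.511 on replicate 1 and 1.30 on replicate 2) 43 were above. The share of all named genes above these 2 levels was not computed, so neither count can be set against it. A further mark on the signal scale is given by bioB, an E. coli transcript spiked into the hybridisation at a low amount, whose lowest probe set read 22.6 and 18.3. It was exceeded on both arrays by 4 of the 46 genes, RED1, MSH5, SPO73 and SPS100, and by 70.8% of all named genes. By mean log2 signal, 41 of the 46 genes fell below the 25th percentile of named genes, a signal of 19.2.

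**Figure D1:**
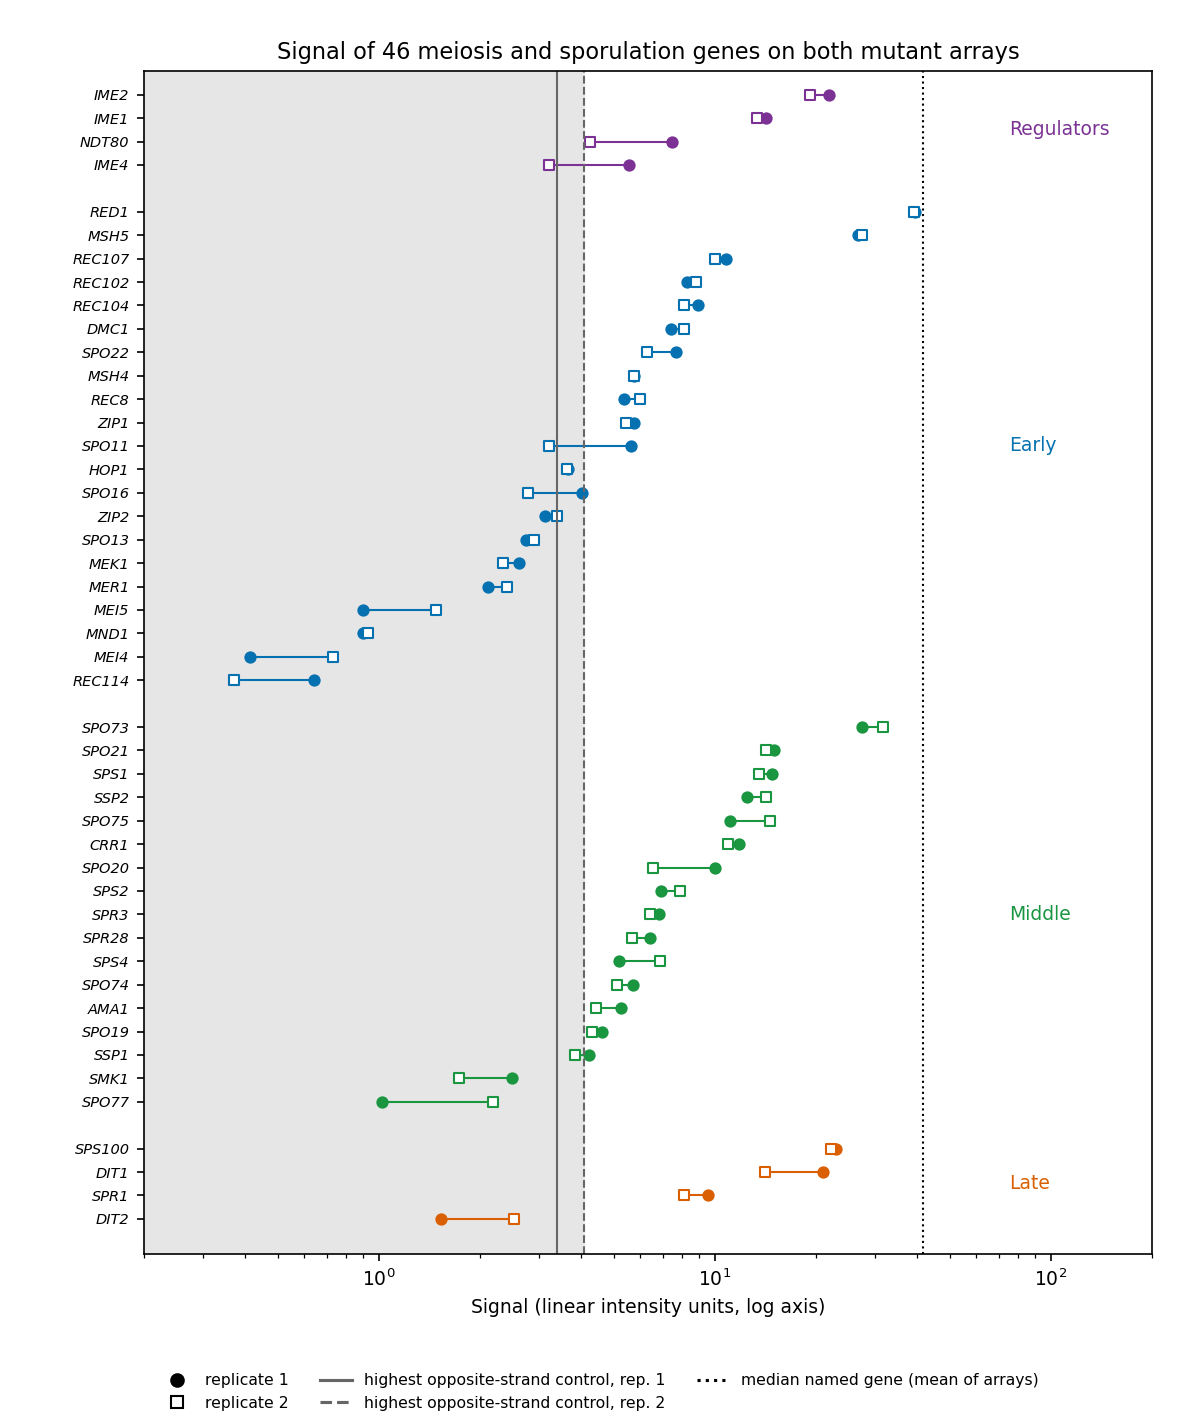
Signal of each of the 46 genes on replicate 1 (filled circles) and replicate 2 (open squares), on a log axis in linear intensity units. Genes are shown by class and in order of the mean within it. The grey area lies below 4.07, the highest opposite-strand control of replicate 2, so a replicate 1 point in it can exceed the replicate 1 level of 3.39. The dotted line is the median named gene. Every gene lies left of the dotted line on both arrays, and the early class, which is the largest, has the most genes in the grey area.

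**Figure D2:**
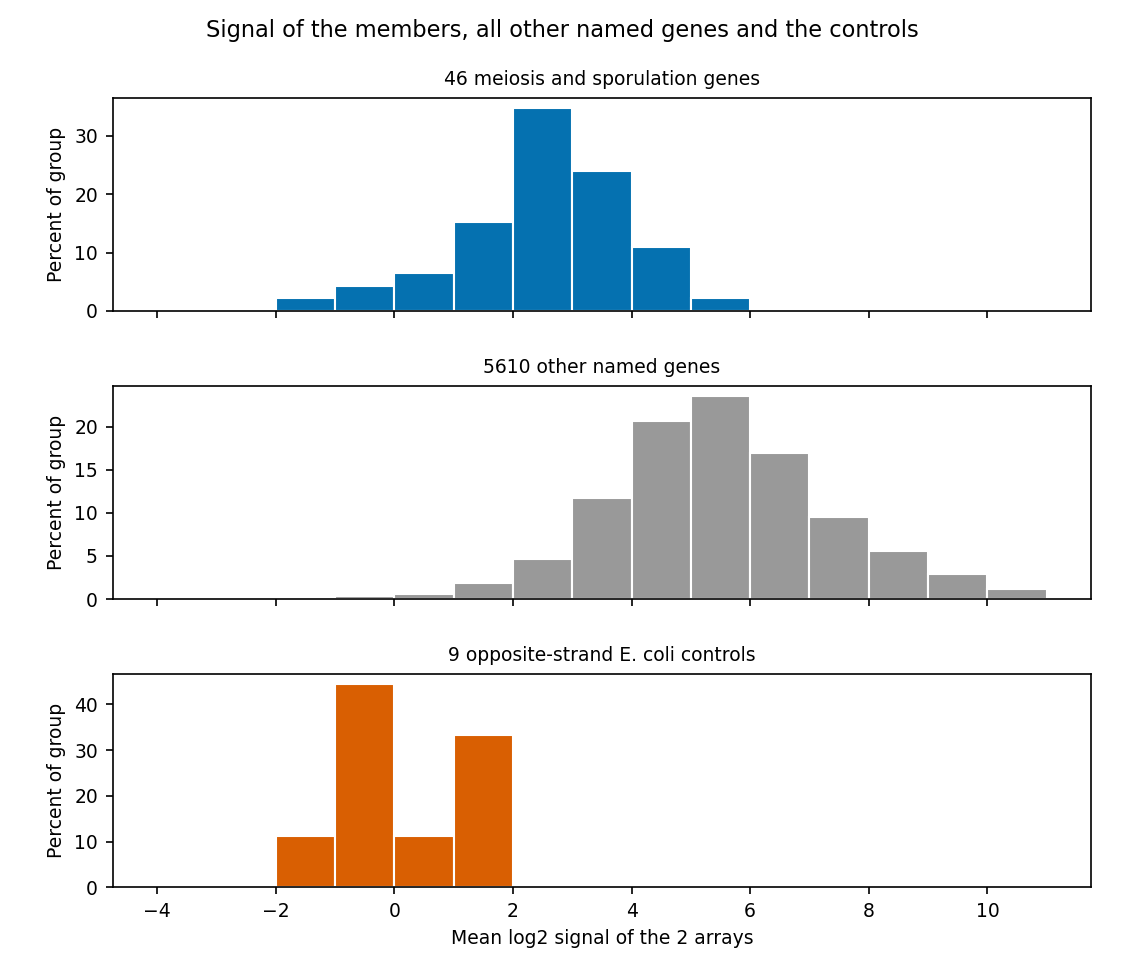
Percent of genes in steps of 1 of the mean log2 signal of the 2 arrays, for the 46 genes, the 5610 other named genes and the 9 opposite-strand controls. The fullest step of the 46 genes, 2 to 3, holds 34.8% of them, the controls all lie below 2, and the fullest step of the other genes is 5 to 6.

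The regulators were considered first. IME2, the meiosis-specific protein kinase gene, read 21.9 on replicate 1 and 19.3 on replicate 2 (20.6 ± 1.84, SD, n = 2). IME1, the gene of the activator that starts the program, read 14.2 and 13.3 (13.8 ± 0.609). Both lay clear of the background level on both arrays and below the median named gene. NDT80, the gene of the transcription factor for middle genes, read 7.48 and 4.26, the second value barely over the 4.07 of the background level on that array. IME4, which encodes an mRNA adenosine methyltransferase that acts in meiosis, read 5.56 and 3.21, above background on replicate 1 only. The 4 regulators had a median of 9.81 ± 1.44, and 3 of 4 were above background on both arrays, where 96.3% of all named genes were.

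The early genes were the dimmest class. Their median was 4.51 ± 1.22 (SD, n = 2), with 5.37 on replicate 1 and 3.64 on replicate 2, and the replicate 2 value lay under the background level of that array. Gene by gene the class did not shift so, with a median log2 ratio of replicate 2 to replicate 1 of -0.001 and 11 of 21 below 0. The geometric mean over the class was 4.05 ± 0.0501. Above background on both arrays were 10 of 21, or 47.6%, where 96.3% of all named genes were. A further 3 early genes exceeded the background level on replicate 1 only and 8 on neither array. Without replicate 2 the early count was 13, where 5512 of the 5656 named genes exceeded the level of replicate 1. Against the mouse controls the early count was 18, and the share of all named genes there was not computed.

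Among early genes, those for the start of recombination spread widely. SPO11, whose product cuts the DNA to begin recombination, read 5.63 on replicate 1 and 3.21 on replicate 2, above background on the first only. REC107, REC102 and REC104, whose products work with Spo11, were above background on both arrays, at 10.4 ± 0.543, 8.50 ± 0.366 and 8.48 ± 0.566 (SD, n = 2). The REC107 probe sets disagreed, at 18.8 and 18.9 for the brighter and 6.20 and 5.31 for the dimmer, and each was above background on both arrays. REC114 and MEI4, which also encode partners of Spo11, had the lowest gene values of all members. REC114 read 0.639 and 0.370, and MEI4 read 0.414 and 0.730, both within or under the range of the opposite-strand controls on both arrays. The MEI4 probe sets disagreed, at 0.128 and 0.309 for the dimmer and 1.34 and 1.73 for the brighter. By the brighter one MEI4 read above MEI5 and MND1 on both arrays, and still below the background level.

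Genes of the chromosome axis and its signalling included the brightest member. RED1, which encodes an axis protein, read 39.4 on replicate 1 and 39.1 on replicate 2, just under the median named gene of 42.0 and 41.4. HOP1, whose product binds the axis together with Red1, read 3.643 and 3.641, above background on replicate 1 only. MEK1, the gene of the kinase that works with them, read 2.62 and 2.35, not above background on either array. REC8, the gene of the meiotic cohesin subunit, was above background on both arrays at 5.37 and 5.99. The axis genes took in RED1, near the median named gene, and MEK1, within the background range on both arrays.

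The strand exchange genes also lay on both sides of the background level. DMC1, the meiotic recombinase gene, read 7.41 and 8.07 and was above background on both arrays, and each of its probe sets was. MEI5 and MND1, whose products assist Dmc1, read 0.895 and 1.48, and 0.895 and 0.926. Neither was above background on either array.

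Of the genes for crossovers and the synaptonemal complex, MSH5 was the brightest. It read 26.7 on replicate 1 and 27.5 on replicate 2 (27.1 ± 0.570, SD, n = 2). MSH4, whose product pairs with Msh5, read 5.75 and 5.74, above background on both arrays. ZIP1, which encodes the central part of the complex, read 5.75 and 5.43, and SPO22, also known as ZIP4, read 7.67 and 6.29. All of these lay above background on both arrays, whereas SPO16 did on replicate 1 only, at 4.03 and 2.78, and ZIP2 on neither, at 3.13 and 3.39. MER1, a splicing factor gene for meiotic transcripts, read 2.11 and 2.41. SPO13, whose product is needed for the first division to separate homologues, read 2.75 and 2.90. Neither MER1 nor SPO13 was above background on either array.

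Most middle genes were above background, at low signal, but a smaller share of them than of all named genes. Their median was 6.69 ± 0.211 (SD, n = 2), with 14 of 17, or 82.4%, above background on both arrays. At 2 times the background level 6 of 17 remained above it, and the share of all named genes there was not computed. The brightest was SPO73, a gene for spore wall formation, at 27.4 on replicate 1 and 31.7 on replicate 2. SPO21, which encodes a component of the spindle pole body from which the spore membrane grows, read 15.0 and 14.2. The kinase gene SPS1 read 14.8 and 13.6. These values all lay above background on both arrays and below the median named gene.

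A further 11 middle genes were above background on both arrays. SSP2, an activator of the kinase Smk1, read 12.5 and 14.2, SPO75 read 11.1 and 14.6, and CRR1, which encodes a spore wall glycosidase, read 11.8 and 10.9. SPO20, a membrane fusion gene, read 10.0 and 6.54, with a log2 ratio of replicate 2 to replicate 1 of -0.62. The septin genes SPR3 and SPR28 read 6.84 and 6.42, and 6.39 and 5.68, above background on both arrays. SPS2, SPS4, SPO74, AMA1 and SPO19 were above it too, at means from 4.46 to 7.40. AMA1, which encodes a meiotic activator of the anaphase-promoting complex, read 5.24 and 4.44, and SPO19 read 4.60 and 4.32, little over the level of 3.39 and 4.07.

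The middle genes that did not pass were SSP1, SMK1 and SPO77. SSP1, whose product coats the edge of the growing spore membrane, read 4.22 on replicate 1 and 3.83 on replicate 2, above background on replicate 1 only. SMK1, a mitogen-activated protein kinase gene for spore wall assembly, read 2.49 and 1.73. SPO77 read 1.02 and 2.19, from a probe set at 3.26 and 4.57 and another at 0.320 and 1.05. The brighter SPO77 probe set was above background on replicate 2 only, so these 3 genes lay in or at the edge of the background range.

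The 4 late genes had a median of 13.2 ± 2.95 (SD, n = 2), with 3 of 4 above background on both arrays, where 96.3% of all named genes were. SPS100, a spore wall gene, was the brightest at 22.9 on replicate 1 and 22.2 on replicate 2. DIT1 and DIT2, which encode enzymes that make the dityrosine of the outer spore wall, are neighbours on chromosome IV and are read in opposite directions. DIT1 read 21.0 and 14.1, above background on both arrays, and DIT2 read 1.53 and 2.53, below it on both. SPR1, a sporulation-specific glucanase gene, read 9.52 and 8.08. As a geometric mean over the class, the late genes came to 9.05 ± 0.152 in place of 13.2, because DIT2 lies far below the others.

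Set side by side, the class medians were 4.51 ± 1.22 for early, 6.69 ± 0.211 for middle, 13.2 ± 2.95 for late genes and 9.81 ± 1.44 for the regulators (SD, n = 2). On each array the early median was the lowest and the late median the highest, but as geometric means the regulators, at 9.18, came above the late genes, at 9.05. The classes consist of different probe sets and overlap widely, from 0.414 to 39.4 for early and from 1.02 to 27.4 for middle genes on replicate 1. No test was made between them, and the order of the medians is a description of these arrays.

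Genes that act on the program from outside were measured as a list of their own. A list of 21 regulators of entry and repressors had a median of 56.4 ± 2.06 (SD, n = 2), against 41.7 ± 0.405 for all named genes. Above the median named gene on both arrays were 14 of 21, or 66.7%, where 48.2% of all named genes were. All 21 were above background, which 96.3% of all named genes were too. The brightest were TUP1, the gene of a general corepressor, at 136 on replicate 1 and 147 on replicate 2, RIM101, at 134 and 148, and HST1, at 134 and 147. RME1, which encodes a repressor of IME1 in haploid cells, read 112 and 95.2. The repressor genes UME6 and SUM1 read 17.7 and 16.9, and 51.5 and 56.7, and the deacetylase genes RPD3 and SIN3 read 55.0 and 57.9, and 80.7 and 68.0. The dimmest were HOS2, a deacetylase gene, at 5.31 and 4.75, RFM1, which encodes the link between Sum1 and Hst1, at 10.0 and 10.6, and UME1, at 13.7 and 12.7. These levels are of RNA, and the activity of the repressors was not measured.

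A list of other meiosis and sporulation genes, outside the 46, was measured as well. Of its 39 genes 38 had a probe set of their own, with a median of 8.37 ± 0.408, against 41.7 ± 0.405 for all named genes. Above background on both arrays were 25, or 65.8%, where 96.3% of all named genes were. Above the median named gene were 2, or 5.26%, SPS19, a peroxisomal dienoyl-CoA reductase gene, at 59.5 and 55.5, and SPR6, at 52.1 and 61.6. SWM1, a subunit gene of the anaphase-promoting complex, followed at 40.5 and 38.2. The dimmest were CSM4, at 0.703 and 0.123, HOP2, the partner gene of MND1, at 1.47 and 0.679, and SPS22, at 1.28 and 1.23.

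Relatives of the members that serve in mitotic growth were measured as a further list. Of its 13 genes 11 had a probe set of their own, and 11 of 11 were above background and 6, or 54.5%, above the median named gene on both arrays. Both shares are near those of all named genes, 96.3% and 48.2%. CRH1, a cell wall gene related to CRR1, read 447 and 425, EXG1, a glucanase gene related to SPR1, read 446 and 398, and the septin gene CDC11 read 155 and 156. The dimmest were the checkpoint kinase gene RAD53, at 13.2 and 13.3, CDH1, at 15.1 and 14.5, and the mitotic cohesin gene MCD1, at 20.2 and 19.3. All of these lay above the background level on both arrays, as their meiotic relatives SPR1, CRR1, SPR3, AMA1 and REC8 also did, while MEK1 did not.

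**Figure D3:**
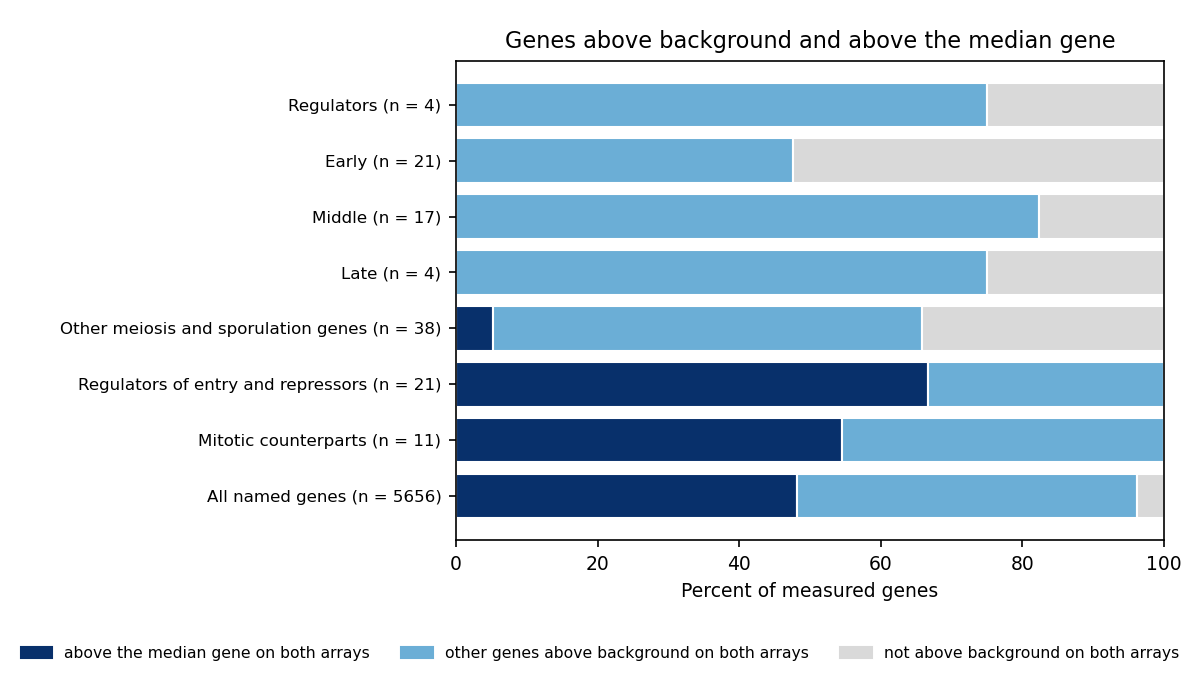
Percent of the measured genes of each list that were above the median named gene on both arrays (dark blue), above background but not above that median on both arrays (light blue), or not above background on both (grey). The 4 classes of members have no dark blue part, and 47.6% of early and 82.4% of middle genes were above background, where 96.3% of all named genes were.

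The cultures were compared last, as the log2 ratio of replicate 2 over replicate 1. Each culture has a single array, so no difference between them has a test. Of the 46 genes 37, or 80.4%, differed by less than 1.5-fold between the arrays, where 96.5% of all named genes and 91.0% of the other genes below the 25th percentile of signal did. Their ratios had a median of -0.087 and an SD of 0.41. All named genes had a median of -0.030 and an SD of 0.29, and the other genes below that percentile a median of -0.062 and an SD of 0.47. Those other genes had a median signal of 10.8, against 5.97 for the members. They are therefore not matched to the members in signal. By a rule of 2-fold, 1 of 46 genes was higher on replicate 2 and none was lower, where 0.283% of all named genes were higher and 0.902% lower. That gene was SPO77, with a log2 ratio of 1.10 from values not above background on either array.

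All 4 regulators read lower on replicate 2, as did 29 of the 46 members and 3296 of the 5656 named genes, with log2 ratios of -0.81 for NDT80, -0.79 for IME4, -0.18 for IME2 and -0.09 for IME1. SPO11 followed with -0.81 and DIT1 with -0.58. In bands of equal log2 signal, 4 members lay outside the central 95% of the other genes, which were NDT80, IME4, SPO11 and DIT1, all lower on replicate 2. A further 39 lay inside it, and 3 had a mean log2 signal below 0, where no band was computed. NDT80, IME4 and SPO11 lay near the background level on replicate 2. The genes of higher signal that were 2-fold lower on replicate 2 had probe sets numbered from 6178 to 6594 and from 9334 to 9924, and 4 members have probe sets there. These are ZIP1, SPR28, REC114 and SPO20, with ratios of -0.08, -0.17, -0.79 and -0.62. Whether these ratios go with the probe set number was not tested. Without these 4 genes, 27 of 42 members were above background on both arrays.

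**Figure D4:**
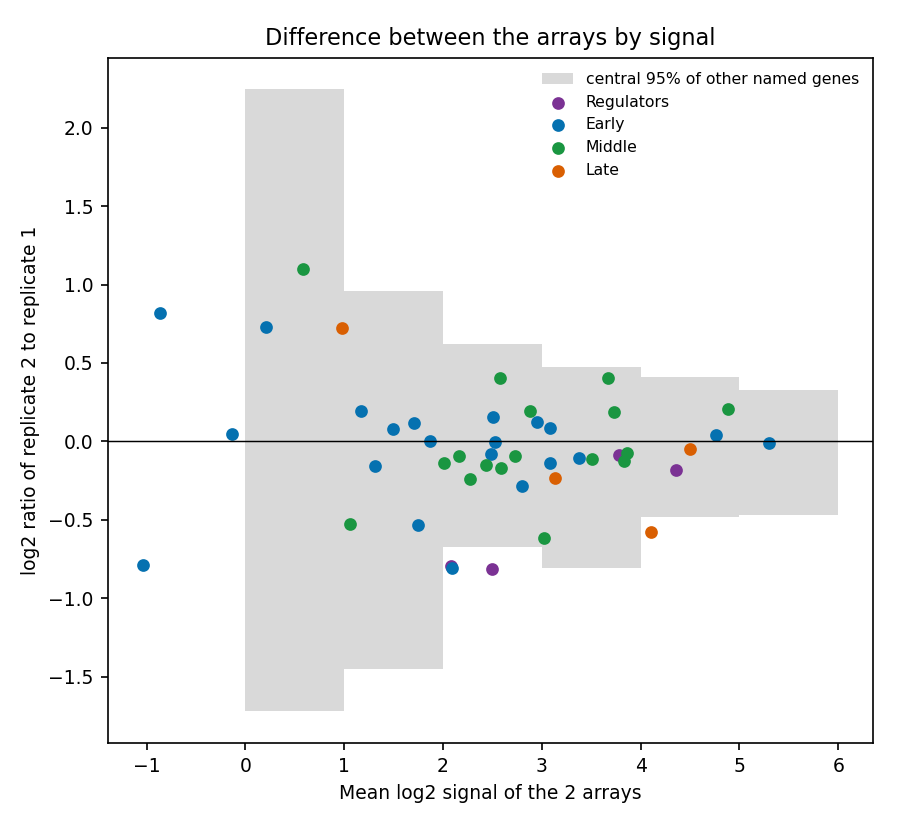
Log2 ratio of replicate 2 to replicate 1 against the mean log2 signal for the 46 genes, coloured by class. The grey area is the central 95% of the other named genes in bands of 1, computed from 0 to 6. Most members lie inside the grey area, and SPO77, at 1.10, is the highest.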

How the data were processed

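The authors deposited linear intensity values, with a value for each probe set. Per the submitters' processing notes the tool was MAS5, with no version or settings stated there. Detection calls were not used. Total RNA came from a hot acid phenol extraction, and about 20 ug was made into biotinylated cRNA, per the labels' protocols.

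Of 9335 probe sets, 60 are controls, 6504 had 1 gene, 328 had several genes and were left out, and for 2443 no name was used. Symbols were updated by gene identifier to RefSeq's R64 table, which also gave neighbouring genes. Values of 0 were left out of a gene's mean. Both arrays form 1 group, so no test was made, and values, counts and SDs over 2 arrays are given. The members, classes and lists were chosen with earlier results of these data known. Values are printed for the regulators, the 3 brightest and 3 dimmest genes of each class and pathway list, the members not above background on either array and those 2-fold apart; the others were named for their roles. The bioB mark, the bands of signal and the neighbours were added after the data were seen. The counting steps were first tested on simulated data. Alternatives were other background levels, probe set choices, quantile normalization, pseudocounts, class membership and leaving out a replicate. A search for promoter motifs was planned and not run, for want of a promoter table. Python 3.11.15, numpy 2.4.6, pandas 2.3.3 and matplotlib 3.10.9 were used.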

Additional observations from a re-analysis of the deposited data

How the results depend on the processing

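The count of members above background followed the background level. With the mouse controls it was 43 of 46, with 18 of 21 early genes, and at 2 times the opposite-strand level it was 14 of 46, with 4 early and 6 middle genes. It was 30 with the brightest or the dimmest probe set of each gene, with plain probe sets only and with quantile normalization, and from 30 to 35 with replicate 1 or replicate 2 left out. No share of all named genes was computed at the mouse level or at 2 times the opposite-strand level. As a geometric mean in place of the median, the signal was 5.71 for all members, 4.05 for early, 7.01 for middle and 9.05 for late genes. It was 9.18 for the regulators, which then lay above the late genes. Without the genes of unsure class, the median was 5.73 over 42 members and 17.5 over 3 late genes. The count of members above the median named gene was 0 in each of the 5 alternatives run. The count 2-fold apart was 1, and 0 among members above background on both arrays, with a pseudocount of 1 and with a pseudocount of 5. The cause of these changes was not tested beyond what each setting leaves out or adds. No paired analysis was possible because both arrays belong to 1 group. The promoter motif alternatives were not run. No detection limit was computed. Levels near the opposite-strand controls cannot be told from background, and differences there are not read as differences in RNA.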

Other observations

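Genes that flank the members on the chromosome were read as a further list. Of 85 flanking protein genes that are no members, 76 had a probe set of their own. Their median signal was 35.1 ± 0.305 (SD, n = 2), against 41.7 ± 0.405 for all named genes. Of the 76, 75, or 98.7%, were above background on both arrays, near the 96.3% of all named genes, and 32, or 42.1%, were above the median named gene, where 48.2% of all named genes were. The flanking gene not above background was PFS1, itself a spore gene, beside SSP1, at 1.60 and 1.30.

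Meiosis is limited to cells with both mating types, so mating-type genes were read as well. Of 7 genes specific to mating type a, 6, or 85.7%, were above the median named gene on both arrays, where 48.2% of all named genes were. Their median was 93.7 ± 3.13 (SD, n = 2). The brightest were the pheromone genes MFA2, at 377 on replicate 1 and 408 on replicate 2, and MFA1, at 111 and 98.8, and the receptor gene STE2, at 96.6 and 95.9. The MFA1 probe sets disagreed, at 258 and 237 for the brighter and 48.1 and 41.2 for the dimmer. By the dimmer one MFA1 read below STE6, and just under the median named gene of 41.4 on replicate 2. The dimmest were ASG7, at 9.27 and 8.89, STE6, at 72.5 and 73.6, and AGA2, at 91.5 and 91.1. Of the alpha-specific genes 2 had a probe set of their own, SAG1 at 53.2 and 59.0 and STE3 at 7.73 and 8.39.

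Of 9 haploid-specific genes 9 were above background and 4, or 44.4%, above the median named gene on both arrays, shares near the 96.3% and 48.2% of all named genes. The brightest were STE4, at 111 and 108, RME1, at 112 and 95.2, and FAR1, at 99.1 and 89.7. The dimmest were FUS3, at 8.36 and 12.8, HO, at 11.8 and 10.7, and AXL1, at 21.7 and 22.3. The FUS3 probe sets disagreed, at 39.9, 28.6 and 0.511 on replicate 1 and 42.5, 28.9 and 1.73 on replicate 2. Only the last of them lay below the background level. By either of the others FUS3 read above HO and AXL1 on both arrays.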
